A study of Gallus gallus with 20 samples.

Results

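The proteasome genes of the chicken were taken as the rows of the deposited gene table whose symbol follows the pattern of the PSMA to PSMG families, which gave 38 genes of 27170 in the table. They comprise 13 genes of the core particle, 15 of the regulatory particle, 7 assembly chaperones, 2 activators and 1 inhibitor. RNA was sequenced from liver and from breast muscle (pectoralis major) of KRC chickens of both sexes, in 4 groups of 5 libraries. Conventional birds ate commercial feed indoors, and organic birds ate feed made of organic raw materials and could use an outdoor pasture from day 21, so feed and pasture changed together. Both systems started with 125 chicks in 5 pens, shared a poultry house and ended at a slaughter age of 91 days. Nothing in the labels says which pen a sampled bird came from or whether a liver and a muscle library of the same number share a bird. The p-values below therefore measure the spread between these libraries.

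The proteasome is the protease of the cytosol and nucleus that degrades proteins tagged with ubiquitin. Its core particle is a barrel of outer alpha rings, which gate the entrance, and inner beta rings, which hold the cutting sites inside. Regulatory particles cap the barrel: their base contains the ATPases that unfold and thread substrates, and their lid removes the ubiquitin. In skeletal muscle this system carries out much of the breakdown of myofibrillar protein, and in liver it turns over short-lived regulatory and misfolded proteins. The roles named for single genes are those known from mammals and yeast.

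Library totals ranged from 14065269 to 20488526 counts in liver and from 12699692 to 13417005 in breast muscle, and organic liver replicate 1 was the deepest. The 38 genes together took 0.2237% to 0.2853% of the counts of a liver library and 0.3102% to 0.4234% of those of a muscle library. The lowest count of any of them in any library was 41, and all 38 passed the filter on low counts in every comparison. Each library carried the markers of its labelled tissue. The 9 hepatocyte markers matched of 10 summed to 57861 to 104544 FPKM in liver and 256 to 1285 in muscle, and the 5 muscle fibre markers matched of 10 to 55203 to 79157 in muscle and 0.514 to 3.02 in liver. FPKM is the read count scaled by gene length and library size, here as deposited by the authors.

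PSMB4, a beta ring subunit needed for ring assembly, had the highest level of the 13 core genes in all 4 groups. Its level was 111 ± 7.57 FPKM (SD, n = 5) in conventional and 132 ± 26.3 in organic liver, and 169 ± 24.9 in conventional and 206 ± 18.8 in organic muscle. PSMB3, another beta ring subunit, was lowest in liver at 26.3 ± 3.07 FPKM in conventional and 32.2 ± 6.52 in organic birds. PSMB7, the catalytic subunit with trypsin-like activity, was lowest in muscle at 29.1 ± 4.47 and 30.4 ± 4.75 FPKM. PSMB7 and PSMB3 did not separate beyond their spread in either tissue, since over the 10 libraries of a tissue they stood at 30.7 ± 5.63 and 29.3 ± 5.71 FPKM (SD) in liver and at 29.8 ± 4.40 and 32.7 ± 5.50 in muscle. The highest core gene thus stood 4.22-fold and 4.10-fold above the lowest in conventional and organic liver. In conventional and organic muscle it stood 5.81-fold and 6.78-fold above the lowest. The assembled barrel holds equal copies of every subunit, but that concerns protein, and these are RNA levels divided by gene length. PSMB4 has a length of 922 bases and PSMB7 of 3545. In conventional muscle PSMB4 had 1484 to 2482 counts per library and PSMB7 1086 to 1632.

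Below PSMB4 in liver came PSMB1, a beta ring subunit, at 71.4 ± 14.2 FPKM (SD over 10 libraries), PSMA3 at 64.0 ± 15 and PSMA4 at 60.1 ± 12.4, both of the alpha ring, and these 3 overlapped. At the low end PSMA6 stood at 33.4 ± 8.45 and PSMA1 at 37.7 ± 5.82 FPKM, within their spread of each other. In muscle the order below PSMB4 was PSMA3 at 110 ± 25.9, PSMB1 at 94.4 ± 17.6 and PSMA5 at 91.2 ± 19.4 FPKM, again overlapping. PSMA6 at 43.4 ± 7.46 and PSMA7 at 50.6 ± 6.62 FPKM stood next to the lowest pair. PSMB6, the other catalytic subunit measured, which cuts after acidic residues, was at 34.0 ± 5.94 and 43.4 ± 18.1 FPKM in conventional and organic liver. In muscle it was at 61.0 ± 9.27 and 73.6 ± 16.1 FPKM. The third catalytic subunit, PSMB5, was not analysed here, nor were the inducible subunits PSMB8, PSMB9 and PSMB10, which replace the catalytic ones in the immunoproteasome of mammals.

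PSMD7, a lid subunit that pairs with the deubiquitinase, had the highest level of the 15 regulatory genes in all 4 groups. In conventional and organic liver it stood at 68.8 ± 7.90 and 78.0 ± 19.2 FPKM (SD, n = 5), and in muscle at 198 ± 28.5 and 245 ± 19.3. Its partner PSMD14, the deubiquitinase that cleaves ubiquitin chains from substrates, had the lowest, at 10.5 ± 0.830 and 13.5 ± 3.49 FPKM in liver and 21.0 ± 5.75 and 26 ± 2.05 in muscle. PSMD7 exceeded PSMD14 by 6.55-fold and 5.78-fold in liver and by 9.43-fold and 9.42-fold in muscle.

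The other regulatory genes ranged between them, and the order shifted from liver to muscle. In liver the lid subunit PSMD13 at 58.6 ± 10.7 FPKM (SD over 10 libraries) and the ATPases PSMC2 at 44.3 ± 7.73 and PSMC3 at 42.7 ± 6.73 followed PSMD7. In muscle PSMD4, the base subunit that binds ubiquitin chains, at 147 ± 27.1 FPKM and the ATPase PSMC5 at 99.1 ± 12.3 took those places, ahead of PSMC2 at 88.5 ± 9.65. Above PSMD14 at the low end of liver were the lid subunits PSMD11 at 18.8 ± 1.87 and PSMD6 at 23.7 ± 3.49 and the base scaffold PSMD2 at 28.0 ± 4.63 FPKM. The low end of muscle held PSMD11 at 36.3 ± 6.53, PSMD3 at 48.5 ± 7.47 and PSMD6 at 51.6 ± 7.60 FPKM, all 3 of the lid. Across the 15 genes, Spearman's rho between conventional liver and conventional muscle levels was 0.638, against 0.846 across the 13 core genes. Those are descriptions over genes that share libraries. Level and gene length were negatively related across the core genes, with rho of -0.575 in both liver groups and -0.853 in both muscle groups. Across the regulatory genes rho was -0.306 in conventional and -0.375 in organic liver, and -0.768 in conventional and -0.764 in organic muscle. Length is itself a divisor of FPKM.

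**Figure D1:**
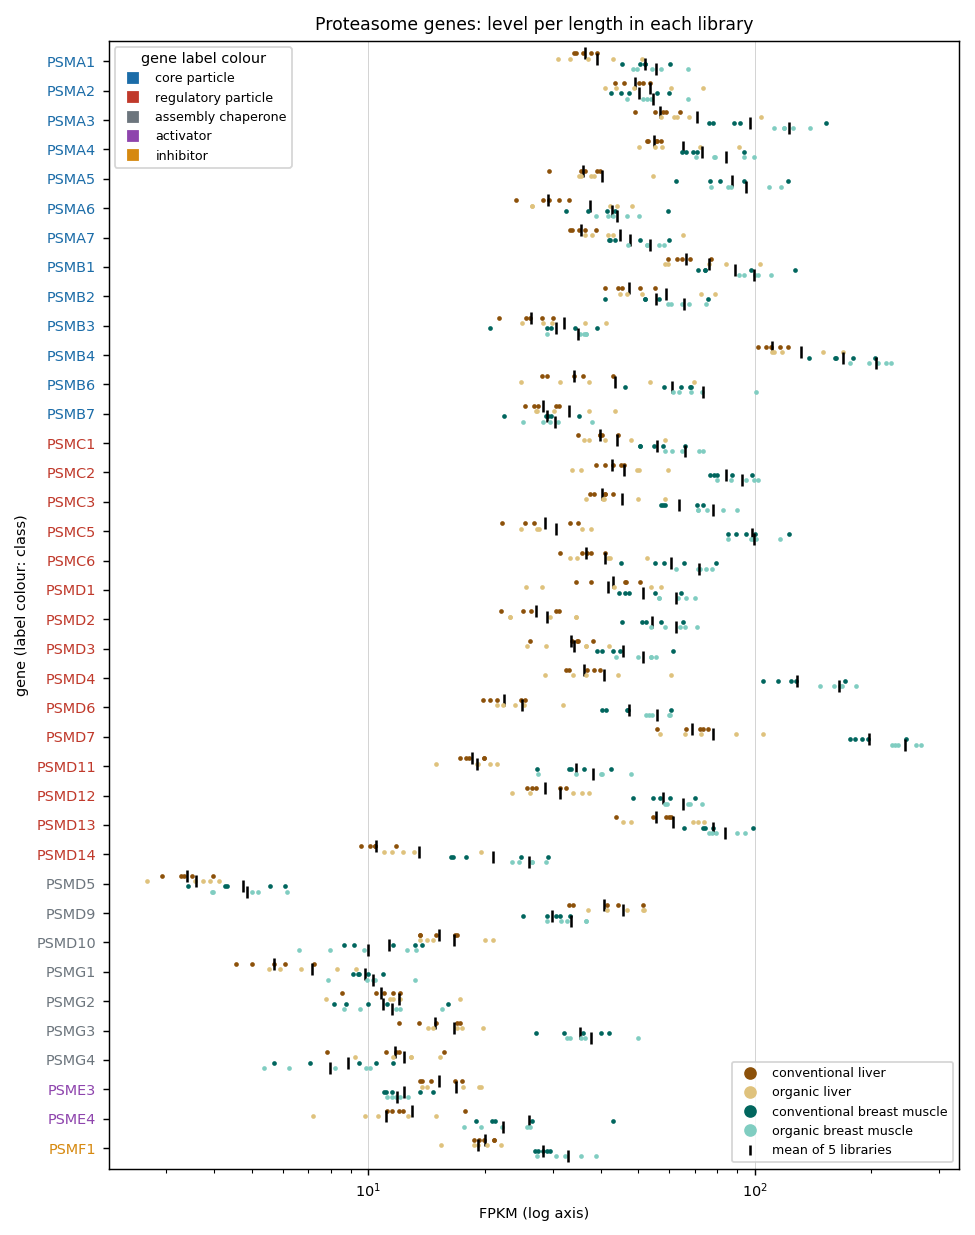
Level of each of the 38 proteasome genes in each of the 20 libraries, in FPKM on a log axis, with the mean of each group of 5 as a black bar and the gene label coloured by class. PSMB4, PSMD4 and PSMD7 reach the highest levels in muscle, PSMD5 lies lowest in all 4 groups, and PSMD4, PSMC5 and PSMD7 show muscle libraries clear of liver libraries.

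The tissue comparison asked which proteasome genes differ between liver and breast muscle over both raising systems. Of the 38 genes, 29 were lower in liver and 4 were higher past the threshold (edgeR's quasi-likelihood test, Benjamini-Hochberg adjusted p of 0.05). Across all 14447 genes tested, 81.5% passed in either direction, 39.1% as lower and 42.5% as higher, so a difference as such was common. The median log2 fold change, liver over muscle, was -0.56 for the 38 genes and 0.0741 for all genes tested, and it was above 0 for 6 of the 38 against 52.1% of all genes. The liver values lay wholly below the muscle values for 11 of the 38 genes, against 24.3% of all genes, and wholly above them for 0, against 24.7%. In whole tissue, fewer cells of a type and less RNA per cell cannot be told apart. The 6 fibroblast markers, none at 0, summed to 60.9 to 148 FPKM in liver and 943 to 3415 in muscle, and the 7 leukocyte markers matched of 10, none at 0, to 225 to 488 in liver and 23 to 48.9 in muscle. The part of such cells in the tissue differences was not tested.

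All 15 regulatory particle genes measured were lower in liver past the threshold, against 39.1% of all genes tested. Their log2 fold changes ran from -1.91 to -0.41, with a median of -0.96. The regulatory symbols PSMC4 and PSMD8 matched no row and were not analysed here. PSMD4 (ENSGALG00000028505, GRCg6a chromosome 25, 278428 to 282487) differed most. Its conventional livers stood at 36.8, 38.5, 32.5, 39.8 and 33.0 FPKM and its organic livers at 60.6, 44.2, 36.5, 33.9 and 28.6. Conventional muscle stood at 115, 105, 124, 171 and 128 FPKM and organic muscle at 168, 148, 166, 160 and 183. Every muscle library was above every liver library, a 3.76-fold difference with a log2 fold change of -1.91 ± 0.12 (SE, adjusted p = 3.13e-12, edgeR's quasi-likelihood test).

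PSMC5 (ENSGALG00000000349, chromosome 27, 4119715 to 4123304), one of the ATPases of the base, was the second. It read 33.2, 34.9, 22.2, 26.9 and 25.5 FPKM in conventional and 37.7, 35.8, 27.7, 27.4 and 24.9 in organic liver. In muscle it read 100, 94.7, 85.3, 123 and 89.5 FPKM in conventional and 116, 97.6, 85.1, 98.8 and 101 in organic birds. The tissues did not overlap, and the log2 fold change was -1.73 ± 0.11 (adjusted p = 2.07e-12, edgeR's quasi-likelihood test).

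PSMD7 (ENSGALG00000000707, chromosome 11, 19074895 to 19080147) lay between 57.0 and 105 FPKM in liver and between 176 and 269 in muscle, again without overlap, at -1.57 ± 0.11. Further regulatory genes with non-overlapping tissues were PSMD6 at -1.10 ± 0.09, PSMD2 at -1.04 ± 0.10 and PSMD12, a lid subunit, at -1.02 ± 0.10. PSMC2 at -0.98 ± 0.10 and PSMD11 at -0.93 ± 0.10 also did not overlap. The smallest regulatory differences belonged to PSMD1, the other large base scaffold, at -0.41 ± 0.13, PSMD13 at -0.45 ± 0.11 and PSMD3 at -0.51 ± 0.10. PSMD3 lies wholly inside the span of THRA on the same strand, so its counts may share reads with that gene.

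The core particle differed less, with log2 fold changes from -1.24 to 0.06. Of its 13 genes, 9 were lower in liver and 0 were higher, against 39.1% and 42.5% of all genes tested. In either direction 81.5% of all genes passed. The median of its log2 fold changes was -0.38. PSMA5 (ENSGALG00000039624, chromosome 26, 1212369 to 1221114), an alpha ring subunit, was the 1 core gene whose tissues did not overlap. Its livers read 39.1, 36.4, 35.5, 29.3 and 39.8 FPKM in conventional and 54.5, 37.7, 35.5, 35.2 and 38.4 in organic birds. Its muscles read 94.0, 62.4, 81.2, 122 and 76.7 FPKM in conventional and 117, 85.1, 77.3, 86.7 and 109 in organic birds. The log2 fold change was -1.24 ± 0.12 (adjusted p = 4.28e-09, edgeR's quasi-likelihood test). PSMA5 shares 252 bases with SYPL2 on the opposite strand, which averaged 29.0 counts in liver and 8713 in muscle, and the sources used here do not give the strandedness of the libraries. The part of those reads in the PSMA5 value was not tested.

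PSMB6 at -0.79 ± 0.16, PSMA3 at -0.77 ± 0.13 and PSMB4 at -0.61 ± 0.10 followed among the core genes lower in liver. The other 5 were PSMA1 at -0.50, PSMB1 at -0.39, PSMA4 and PSMA6 at -0.37 and PSMA7 at -0.32. PSMA2, PSMB2, PSMB3 and PSMB7 did not pass, at -0.02 ± 0.11, -0.18 ± 0.12, -0.15 ± 0.11 and 0.06 ± 0.10. Scaling by library totals alone moved the median of all genes from 0.0741 to 0.205. Under it PSMB7 passed as higher in liver (0.18, adjusted p = 0.0412, edgeR's quasi-likelihood test) and PSMA7 no longer passed (adjusted p = 0.0771). PSMA2 changed sign under it, to 0.10, and also with upper quartile scaling (0.0144) and with some single libraries left out. PSMB7 was at -0.0253 in conventional libraries alone.

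The mean level of the regulatory genes relative to that of the core genes was lower in liver than in muscle. This ratio does not depend on how libraries are scaled. The mean level of the 13 core genes was 47.1 ± 1.73 FPKM (SD, n = 5) in conventional liver, 55.9 ± 13.2 in organic liver, 68.1 ± 12.6 in conventional muscle and 78.4 ± 6.68 in organic muscle. For the 15 regulatory genes it was 35.5 ± 3.29, 38.7 ± 7.88, 72.0 ± 10.4 and 84.3 ± 6.52 FPKM in the same order. The ratio of the regulatory to the core mean was 0.778, 0.839, 0.675, 0.763 and 0.714 in the conventional and 0.634, 0.71, 0.801, 0.676 and 0.662 in the organic livers. In muscle it was 0.995, 1.14, 1.18, 1.01 and 1 in the conventional and 1.04, 1.04, 1.12, 1.06 and 1.12 in the organic birds. All 10 muscle libraries lay above all 10 liver libraries, while the raising systems overlapped within each tissue. Means of FPKM weigh high genes most, and PSMD7, PSMD4 and PSMC5 were the highest regulatory genes of muscle. They also had the largest tissue differences. The separation of the ratio therefore holds only for means that include these genes, and cannot be read as a property of the whole class. It was not tested without them. The classes stood closer by their median genes. Core and regulatory medians were 36.3 and 36.1 FPKM in conventional liver and 44.9 and 40.8 in organic liver. In muscle they were 55.4 and 58.0 in conventional and 65.5 and 66.0 in organic birds.

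**Figure D2:**
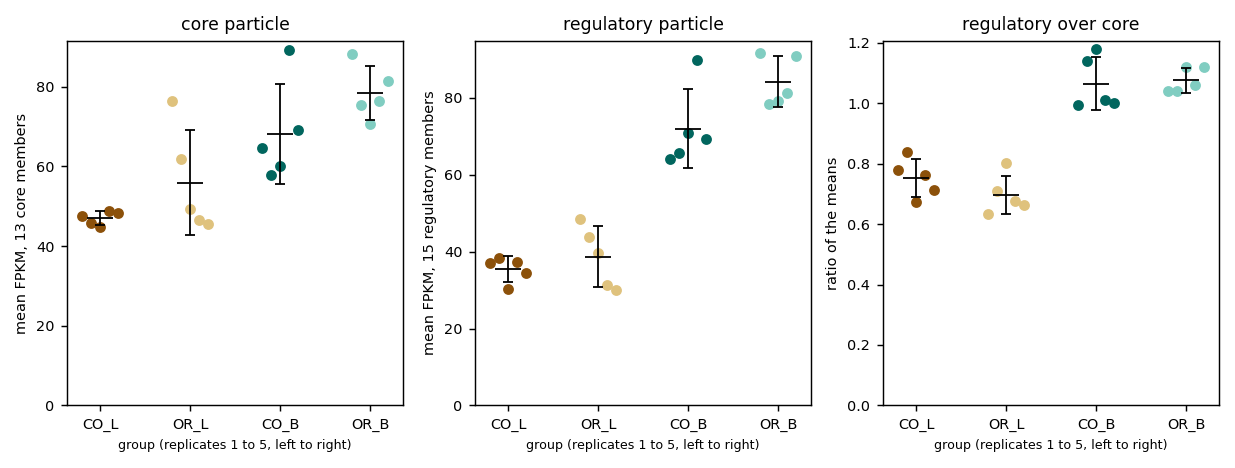
Mean FPKM of the 13 core genes (left) and the 15 regulatory genes (middle) and their ratio (right) in each library, by group: conventional liver (CO_L), organic liver (OR_L), conventional breast muscle (CO_B) and organic breast muscle (OR_B). Points are libraries and bars are the mean and SD of 5. Liver ratios run from 0.634 to 0.839 and muscle ratios from 0.995 to 1.18.

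The assembly chaperones build the particles and leave them afterwards. They went both ways between the tissues, with 3 of 7 higher in liver, 3 lower and 1 that did not pass. That is near the share of all genes tested, of which 42.5% were higher and 39.1% lower. PSMG1 and PSMG2 work as a pair on the alpha ring, as do PSMG3 and PSMG4. PSMG3 (ENSGALG00000004203, chromosome 14, 3023831 to 3027172) stood at 14.9 ± 2.27 and 16.7 ± 2.24 FPKM in conventional and organic liver and at 35.4 ± 6 and 37.6 ± 7.14 in muscle, without overlap, at -1.19 ± 0.11. Its partner PSMG4 went the other way, at 11.7 ± 2.79 and 12.4 ± 2.22 FPKM in liver and 8.85 ± 2.43 and 7.97 ± 2.13 in muscle, a log2 fold change of 0.54 ± 0.17 (adjusted p = 0.00553, edgeR's quasi-likelihood test) with overlapping tissues. In conventional libraries alone PSMG4 was at 0.42 and did not pass (adjusted p = 0.135, edgeR's quasi-likelihood test). PSMG1, at 5.72 ± 1.04 and 7.14 ± 1.59 FPKM in liver and 9.78 ± 0.692 and 10.3 ± 1.90 in muscle, was lower in liver at -0.64 ± 0.11. PSMG2, at 10.8 ± 1.37, 12.0 ± 3.41, 10.9 ± 3.18 and 11.5 ± 2.65 FPKM in conventional and organic liver and conventional and organic muscle, did not pass at 0.04 ± 0.15. PSMG2 shares 49.8% of its span with PTPN2 on the opposite strand.

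Of the 3 chaperones of the base, PSMD10, the ankyrin repeat protein also known as gankyrin, was higher in liver. It stood at 15.2 ± 1.64 and 16.7 ± 3.51 FPKM in conventional and organic liver and at 11.3 ± 2.31 and 10 ± 2.90 in muscle, a log2 fold change of 0.60 ± 0.14. PSMD5 had the lowest level of all 38 genes in each group, at 3.40 ± 0.377 and 3.59 ± 0.547 FPKM in liver and 4.73 ± 1.08 and 4.85 ± 0.927 in muscle, and was lower in liver at -0.44 ± 0.12. PSMD9, at 40.8 ± 7.68 and 45.6 ± 6.37 FPKM in liver and 29.9 ± 3.07 and 33.4 ± 3.29 in muscle, passed as higher in liver at 0.46 ± 0.09. The whole span of PSMD9 (ENSGALG00000004352, chromosome 15, 5989099 to 5991828) lies inside HPD, a gene of tyrosine breakdown, on the opposite strand. HPD averaged 22526 counts per liver library and 10.1 per muscle library, so the reads of the pair may not be separable, and its part in the PSMD9 value was not tested.

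The activators, which open the core without a regulatory particle, differed in opposite directions. PSME3, which forms the nuclear activator, was higher in liver, at 15.2 ± 1.80 and 16.9 ± 2.76 FPKM in conventional and organic liver and 12.4 ± 1.68 and 11.9 ± 0.605 in muscle, with a log2 fold change of 0.42 ± 0.09 and overlapping tissues. PSME4, the large activator that mammals use in the testis and in chromatin repair, was lower in liver. It stood at 13 ± 2.70 and 11.1 ± 2.95 FPKM in conventional and organic liver and at 26.1 ± 9.80 and 22.3 ± 3.73 in muscle, at -1 ± 0.16. PSMF1, which can inhibit the core in vitro, stood at 20.1 ± 1.05 and 19.2 ± 2.47 FPKM in liver and 28.3 ± 1.05 and 32.9 ± 4.41 in muscle. Every liver library was below every muscle library for PSMF1, at -0.62 ± 0.08 (adjusted p = 1.63e-07, edgeR's quasi-likelihood test). PSME1 and PSME2, the subunits of the interferon-inducible activator, were not analysed here.

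**Figure D3:**
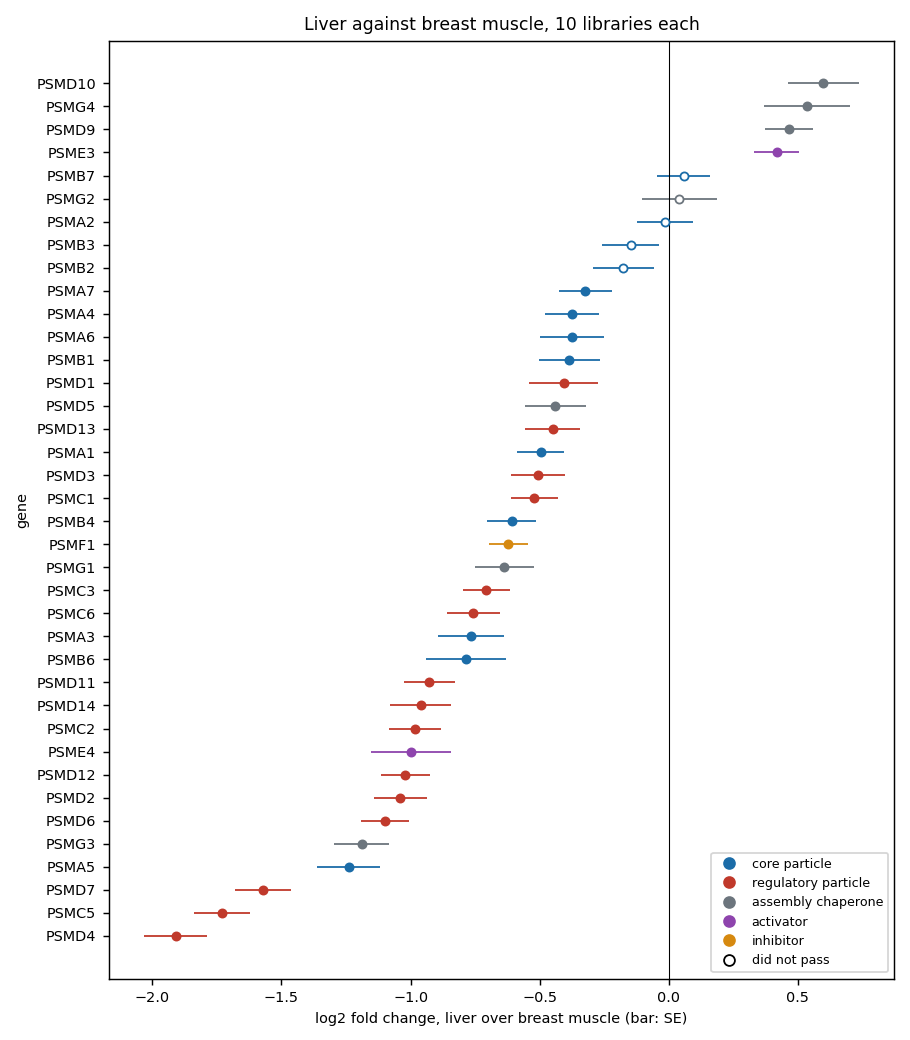
Log2 fold change of each of the 38 proteasome genes between liver and breast muscle, 10 libraries each, with its SE and coloured by class, with open points for genes that did not pass. The 15 regulatory genes all lie below 0, from -1.91 for PSMD4 to -0.41 for PSMD1, and the 4 genes that passed above 0 are PSMD10, PSMG4, PSMD9 and PSME3.

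Of the 33 genes that passed between tissues, 27 also passed in the same direction under all 30 alternatives. The exceptions were PSMG4 and PSMA7, given above, and genes lost within a single raising system. In organic libraries alone PSMA4, PSMA6, PSMA7 and PSMB1 did not pass (adjusted p = 0.0873, 0.302, 0.22 and 0.061), and in conventional libraries alone PSMD1 did not (adjusted p = 0.148, edgeR's quasi-likelihood test for each).

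Of a list of 36 symbols for other genes of the proteasome pathway, 29 matched a row. Of those, 20 were lower in liver and 5 higher past the threshold, with a median log2 fold change of -0.63. Of all genes tested 39.1% were lower and 42.5% higher, and 81.5% passed in either direction. ZFAND5, a ubiquitin-binding protein linked to muscle wasting in mice, was at -3.03 ± 0.21, and NFE2L1, the transcription factor that raises proteasome genes when the protease is inhibited, was at -1.94 ± 0.11. ECPAS, which binds core and regulatory particles, was at -1.88 ± 0.11. NPLOC4 and FAF1, partners of the segregase VCP, were at -1.50 ± 0.09 and -1.35 ± 0.10. Among those higher in liver were FAF2, another VCP partner, at 1.16 ± 0.10, PAAF1, which binds the ATPases, at 0.95 ± 0.11, PITHD1 at 0.82 ± 0.10 and UBQLN1, a shuttle that carries ubiquitinated proteins, at 0.47 ± 0.15.

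The raising system comparison asked which genes differ between organic and conventional birds within a tissue. In liver, 0 of the 38 proteasome genes passed with edgeR's quasi-likelihood test, against 0% of all 13186 genes tested. At an unadjusted p under 0.05 there was 1 proteasome gene, against 7.56% of all genes. DESeq2 called 0.243% of all genes and 0 of the 38. The fold change was above 0 for 35 of the 38 genes, against 47.7% of all genes, with a median of 0.14, and for all 13 core genes, with a median of 0.23. These genes share libraries, so the counts are not independent. Organic replicates 1 to 5 had 37, 37, 31, 11 and 9 of the 38 genes above the conventional mean of log2 FPKM. The groups overlapped for all 38 genes, where 1.08% of all genes did not overlap, and 3 of the 38 had all 5 organic libraries on 1 side of the conventional mean, against 15.4%.

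PSMD14 (ENSGALG00000011128, chromosome 7, 21375858 to 21422146) had the smallest p in liver. Its conventional livers read 10.4, 10.1, 9.58, 11.8 and 10.4 FPKM and its organic livers 19.6, 13.1, 12.3, 11.5 and 11. Organic replicate 1 stood apart from the other 4, which reached no further than 13.1, and the groups overlapped between 11 and 11.8. The log2 fold change was 0.35 ± 0.15 with 5 of 5 organic libraries above the conventional mean, and it did not pass (adjusted p = 0.653, edgeR's quasi-likelihood test). Without organic replicate 1 it was 0.18.

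The next by p were core genes, none past the threshold. PSMA7 read 33.7, 38.8, 33.3, 35.2 and 36.3 FPKM in conventional and 65.1, 43.1, 36.4, 41.7 and 38.0 in organic livers, at 0.32 ± 0.15, and again organic replicate 1 was far above the rest. PSMA3 was at 0.30 ± 0.16, PSMB3 at 0.27 ± 0.14 and PSMA6 at 0.34 ± 0.17. Without organic replicate 1, PSMA7 was at 0.16, PSMA3 at 0.12, PSMB3 at 0.17 and PSMA6 at 0.24. PSME4 was at -0.25 ± 0.19, PSMF1 at -0.08 ± 0.10 and PSMD1 at -0.07 ± 0.21, the 3 genes below 0. PSME4 was at -0.10 without conventional replicate 1 and PSMF1 at -0.02 without organic replicate 4. PSMD1 turned positive when organic replicate 4 (0.03) or organic replicate 5 (0.05) was left out.

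Organic livers varied more among themselves than conventional ones for most proteasome genes. The coefficient of variation was larger in organic livers for 34 of 38 genes, with a median of 20.9% against 11.2%. No matching share of all genes was computed for these spreads, nor for the ranks of single libraries below. Whether the wider spread is particular to the 38 genes, which share libraries, was not tested. Organic replicate 1 was the highest of the 10 livers for 27 of the 38 genes, and its core mean of 76.4 FPKM compared with 61.8, 49.4, 46.5 and 45.5 in organic replicates 2 to 5 and 44.8 to 48.9 in conventional livers. Organic replicate 2 was the next, and the core means of organic replicates 4 and 5 lay within the conventional range. Without organic replicate 1 the median fold change of the 38 genes was 0.05 with 29 above 0, and organic livers were still the more variable for 29 of 38 genes, with a median of 16.7%. Organic replicate 1 is also the liver library with the most reads and the lowest mitochondrial share of counts, at 5.79%. The remaining 9 livers had 6.93% to 14.2%, with organic replicate 4 the highest. The part of depth and of that share in these values was not tested.

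In breast muscle, 0 of the 38 genes passed with edgeR's quasi-likelihood test, against 0% of the 12496 genes tested. At an unadjusted p under 0.05 there were 3 of the 38, against 7.47% of all genes, and DESeq2 called 0.12% of all genes and 0 of the 38. The fold change was above 0 for 33 of 38 genes, against 48% of all genes, with medians of 0.14 for the 38 genes, 0.14 for the core and 0.21 for the regulatory genes. As in liver, genes share libraries, so these counts are not independent. Organic libraries had 25 to 35 of the 38 genes above the conventional mean of log2 FPKM, and conventional replicate 4 had 34. The groups overlapped for every gene, where 1.26% of all genes did not, and 14 of the 38 had all 5 organic libraries on 1 side of the conventional mean, against 18.7%.

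PSMD4 had the smallest p in muscle, with the values given above. Its conventional replicate 4, at 171 FPKM, exceeded 4 of the 5 organic libraries, and the other 4 conventional libraries lay below all of them. The log2 fold change was 0.33 ± 0.14 (adjusted p = 0.647, edgeR's quasi-likelihood test), and it was 0.45 without that library. The ATPase PSMC3 read 57.9, 57.2, 70.9, 73.4 and 58.5 FPKM in conventional and 89.9, 71.3, 75.2, 71.2 and 82.8 in organic muscle, at 0.27 ± 0.12. PSMD7 read 176, 190, 182, 247 and 197 FPKM in conventional and 262, 235, 227, 231 and 269 in organic muscle, at 0.28 ± 0.13. In both, replicate 4 was the 1 conventional library that overlapped the organic ones. PSMB4 at 0.25 ± 0.13 and PSMD1 at 0.25 ± 0.13 came next.

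Below 0 in muscle were PSME4 at -0.26 ± 0.22, PSMD10 at -0.20 ± 0.22, PSMG4 at -0.18 ± 0.26, PSME3 at -0.09 ± 0.12 and PSMC5 at -0.01 ± 0.13, none of them past the threshold. PSME4 read 26.6, 42.9, 20.9, 19.0 and 21.3 FPKM in conventional and 17.7, 25.8, 22.2, 19.6 and 26.2 in organic muscle. Conventional replicate 2 was the one high library, and the fold change of PSME4 was -0.0039 without it. The others moved too with 1 library left out, PSMD10 to -0.08 without organic replicate 2, PSMG4 to -0.06 without conventional replicate 5 and PSME3 to -0.02 without conventional replicate 3. PSMC5 changed sign with RLE scaling, DESeq2 and limma and when conventional replicate 4 or organic replicate 3 was left out, so it has no stable direction.

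In muscle the order of the spreads rested on conventional replicate 4. The coefficient of variation was larger in organic muscle for 8 of 38 genes, with a median of 9.96% against 16.0% in conventional muscle. Without conventional replicate 4 it was larger in organic muscle for 20 of 38 genes, and the conventional median was 10.6%. As in liver, no matching share of all genes was computed for these spreads or for the ranks of libraries. The omission of a library from the spreads in both tissues was chosen after the data were seen. Conventional replicate 4 was the highest of the 10 muscle libraries for 13 genes, organic replicate 1 for 10 and organic replicate 5 for 8. The core mean of conventional replicate 4 was 89.2 FPKM, against 57.7 to 69.0 in the other conventional libraries and 70.5 to 88.1 in organic ones. Without it the median fold change of the 38 genes was 0.22. Scaling by library totals alone lowered the medians to 0.06 in liver and 0.07 in muscle, while the median of all genes went from -0.0143 to -0.0836 in liver and from -0.0128 to -0.0802 in muscle.

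**Figure D4:**
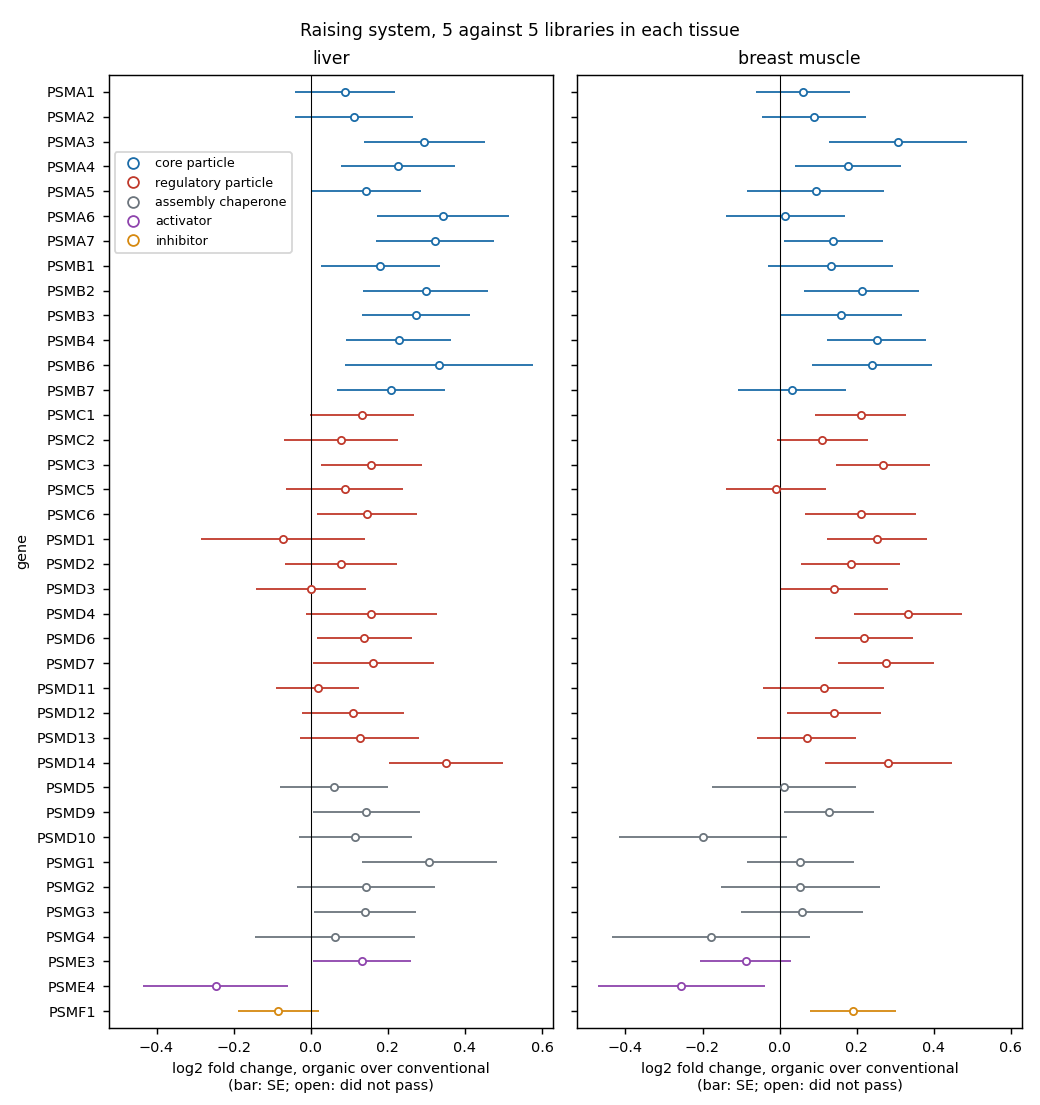
Log2 fold change of each of the 38 proteasome genes between organic and conventional birds, 5 libraries each, with its SE, in liver (left) and breast muscle (right), coloured by class. All points are open because none passed. They lie above 0 for 35 genes in liver and 33 in muscle, and range from -0.25 to 0.35 in liver and from -0.26 to 0.33 in muscle. Genes share libraries, so these counts are not independent.

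The test of whether the raising system effect differed between liver and muscle found 0 of 38 proteasome genes past the threshold with edgeR's quasi-likelihood test, against 0% of 14447 genes. DESeq2 also called 0% of all genes. At an unadjusted p under 0.05 there were 0 of the 38, against 5.34% of all genes. The inhibitor PSMF1 had the smallest p, with a difference of -0.27 ± 0.15 (adjusted p = 0.942, edgeR's quasi-likelihood test). It read 21.2, 19.4, 18.8, 19.9 and 21.1 FPKM in conventional and 20.3, 22.1, 19.2, 15.4 and 18.8 in organic liver. In muscle it read 27.0, 28.4, 27.5, 29.1 and 29.5 FPKM in conventional and 38.8, 27.3, 30.7, 32.3 and 35.5 in organic birds. Organic muscle replicate 2 lay below 4 of the 5 conventional muscles for this gene, and the other 4 organic muscles lay above every conventional one.

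Other differences with the smallest p, all short of the threshold, were PSMA6 at 0.34 ± 0.25, PSME3 at 0.23 ± 0.17, PSMD10 at 0.32 ± 0.27, PSMG1 at 0.26 ± 0.23 and PSMA7 at 0.19 ± 0.20 in the direction of a larger organic value in liver. PSMA7 was at 0.02 and PSMG1 at 0.15 without organic liver replicate 1, PSMA6 at 0.19 without conventional muscle replicate 4, and PSMD10 at 0.20 without organic muscle replicate 2. In the opposite direction were PSMD1 at -0.31 ± 0.27, PSMD4 at -0.17 ± 0.23, PSMD3 at -0.13 ± 0.21 and PSMC3 at -0.10 ± 0.18. With 1 library left out these ran from -0.45 to -0.18 for PSMD1, from -0.36 to -0.06 for PSMD4, from -0.26 to -0.05 for PSMD3 and from -0.22 to -0.03 for PSMC3. The ends were set by organic liver replicates 1, 3, 4 and 5 and conventional muscle replicate 4. The difference was above 0 for 11 of 13 core genes and 3 of 15 regulatory genes, with medians of 0.06 and -0.07. The SE of a single gene was 0.182 to 0.308 in the core and 0.182 to 0.267 in the regulatory class. Genes of a class share libraries, so these counts are not independent. Over the 38 genes it was above 0 for 23, against 51.3% of all genes, and for 14 without organic liver replicate 1 and likewise without conventional muscle replicate 4.

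Among the 29 other genes of the proteasome pathway, 0 passed for raising system in either tissue or in the test between tissues. Among those with the smallest p in liver were the ubiquitin fusion gene RPS27A at 0.30 ± 0.13, UBQLN1 at 0.50 ± 0.23 and ZFAND5 at 0.71 ± 0.34. In muscle they were NPLOC4 at 0.37 ± 0.14, UBQLN1 at 0.40 ± 0.16, ZFAND5 at 0.40 ± 0.17 and VCP at 0.28 ± 0.12. In the test between tissues NPLOC4 was at -0.39 ± 0.17, NFE2L2 at -0.35 ± 0.19 and RPS27A at 0.34 ± 0.24.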

How the data were processed

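RNA of liver and breast muscle was sequenced in 20 libraries, grouped by the sample titles. The authors deposited whole-number read counts and FPKM per gene, with GRCg6a positions. The submitters' processing notes list HISAT2 2.0.5, DESeq2 1.20.0 and GRCg6a, while read counter and strandedness are not given in the sources used. In each library the FPKM deposited by the authors equalled count over gene length over a library factor, which was the median-of-ratios size factor times the geometric mean of the library totals. Its ratio to the library's own total was 0.824 to 1.19. Some items of the table are not reported.

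Counts were tested with edgeR's quasi-likelihood test (edgeR 4.0.16, R 4.3.3, two-sided, robust, TMM, filterByExpr with minimum count 10, Benjamini-Hochberg threshold 0.05). Raising systems were compared within a tissue, and tissues over all 20 libraries with 4 group means. Log2 fold changes are given ± SE. This SE was the absolute log2 fold change over the square root of the F statistic of the quasi-likelihood test. The alternatives were DESeq2 1.42.0, limma 3.58.1 on log2(FPKM + 0.1) and log2(FPKM + 1), other scalings, no filter, the other fit, a replicate block, single systems and each library left out. The method was tested on simulated counts.

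The members and lists were chosen with earlier results of these data known. Named by rule were, per direction, up to 8 members past the threshold with the largest change or otherwise up to 5 with the smallest p, the 4 highest and 4 lowest core and regulatory genes per tissue, and all catalytic subunits, chaperones, activators and the inhibitor. From the 36-symbol list the rule took up to 6 per direction, or otherwise 4. Other members were named after their values were seen. Of the symbols of the gene families, 10 matched no row and were not analysed here. Positions of 9 members overlap another gene.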

Additional observations from a re-analysis of the deposited data

Results flagged for a closer look

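In groups of 5 libraries, a value was picked out where its gap to the nearest other library exceeded 0.71 of the group's range (Dixon's test). Of 164 groups tested 12 were picked out, and chance picks about 1 in 20. Organic liver replicate 1 stood high for PSMA3 (104 FPKM, against 57.4 to 67.8 in the other 4), PSMA5 (54.5, against 35.2 to 38.4), PSMA7 (65.1, against 36.4 to 43.1) and PSMD14 (19.6, against 11 to 13.1). Conventional muscle replicate 4 stood high for PSMA3 (153 FPKM, against 76.3 to 91.8), PSMA4 (93.8, against 64.9 to 71.1), PSMD3 (61.5, against 39.1 to 44.7) and the mean of the 15 regulatory genes (90.0, against 64.2 to 70.9). Organic muscle replicate 1 stood high for PSMB6 (101 FPKM, against 61.6 to 73.0) and low for PSMB3 (29.1, against 35.3 to 36.6). Conventional liver replicate 1 stood high for PSME4 (17.8 FPKM, against 11.2 to 12.3), and organic muscle replicate 3 for PSMG3 (50.0, against 32.7 to 36.3).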

How the results depend on the processing

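Apart from single-library omissions, 189 of 192 summary values and 357 of 362 gene values kept direction and call (counts: stayed near the main one). Values counted as kept could still move. With library totals alone, the members above 0 for raising system went from 35 to 29 in liver and from 33 to 26 in muscle. DESeq2 called 32 genes in liver and 15 in muscle for raising system, where edgeR called 0, and none was a proteasome gene. Recomputed with library totals, the core mean of conventional liver was 51.4 FPKM in place of 47.1. PSMC5 in muscle turned from -0.01 to 0.00056 with RLE scaling, 0.00037 with DESeq2 and 0.02 with limma at either pseudocount. With 1 library left out, it ranged from -0.06 to 0.07 and PSMD1 in liver from -0.21 to 0.05. Genes called in muscle were 0 to 1, the 1 without conventional replicate 4, and members whose raising system effect was larger in liver than in muscle were 14 to 28. Same-numbered conventional and organic libraries of a tissue correlated from -0.181 to 0.142. Same-numbered liver and muscle libraries of a system correlated from 0.0307 to 0.199. Of liver and muscle libraries within a system, 9 of 10 correlated best with their own number, a hint from the data only. As the labels name no pairs, the main fits treated all libraries as independent. If same-numbered liver and muscle libraries share a bird, the tests that span both tissues ignored that pairing. With the replicate block the tissue comparison called 11753 genes, with 29 members lower and 4 higher, and the raising system 0 in each tissue. That block joined conventional and organic libraries of the same number, which are different birds. It therefore cannot show whether the calls hold under pairing by bird. The SE of a member's raising system effect was 0.104 to 0.257, and its lowest count 41 (PSMG4).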

Other observations

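The table holds 5 rows with no symbol whose description names a proteasome subunit. The 3 described as ATPase subunit 6B and the 2 described as non-ATPase subunit 8 had 6 to 240 counts per library. One of the former is ENSGALG00000054023. The other 2 of that kind overlap on opposite strands of chromosome 33, and the 2 described as non-ATPase subunit 8 overlap on opposite strands of chromosome 32, so their reads may not be separable. All 5 were left out of the 38 genes.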
